A study of Mus musculus with 6 samples.

Results

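Hba-x, Hbb-bh1, Hbb-y, Alas2 and Slc4a1 are 5 genes of red blood cells, and they were examined in tongues of mouse embryos at embryonic day 14.5. They were taken by symbol: every probe set whose only gene symbol in the platform annotation is one of the 5 was used, 11 probe sets in all, and the brightest stood for its gene. All 5 genes passed the filter on dim genes and were among the 13645 genes tested, of 18193 with a single-symbol probe set on the array. The tested tongues came from 3 mutants with both floxed copies of Tgfbr2 and the Wnt1-Cre transgene, and the controls were 3 tongues with Tgfbr2 floxed on both copies and no Cre, although their titles say wildtype. Strain C57BL/6J is given for all 6 arrays. Tgfbr2 encodes a TGF-beta receptor subunit, and the Wnt1 promoter drives Cre in the neural crest and its descendants, whereas red cells descend from mesoderm. Sex is given as not determined, no label says whether the tongues came from separate litters, and the text of the labels calls the material tongue as well as tongue mesenchyme. The study asked which genes depend on TGF-beta signalling while the tongue muscle forms.

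Vertebrate embryos make red cells in waves. Primitive red cells arise in the yolk sac and carry embryonic globins, and definitive red cells, made in the fetal liver, carry adult globins and replace them in the blood. Hba-x encodes zeta globin, the embryonic alpha-type chain. Hbb-bh1 and Hbb-y encode embryonic beta-type chains, and both lie in the beta-globin cluster, where the embryonic genes are switched off one after another. Alas2 encodes the red cell form of the enzyme that begins haem synthesis. Slc4a1 encodes band 3, the anion exchanger that carries bicarbonate across the red cell membrane and ties the membrane to its skeleton. In a dissected tongue, transcripts of these genes mark the blood that the tissue held. Fewer red cells and less RNA per red cell cannot be told apart in such bulk RNA.

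The promoter windows are shown because the globin genes and Alas2 are known targets of the erythroid factors Gata1, which binds sites with the letters GATA, and Klf1, which binds CACCC. RefSeq windows of GRCm38.p6, from 250 bases before to 50 bases after the gene's start, were matched for 3 of the 5 genes: Hba-x at chr11:32276350-32276649 on the plus strand, Hbb-y at chr7:103853158-103853457 on the minus strand and Alas2 at chrX:150547167-150547466 on the plus strand. Each reads 5′ to 3′ along its gene, with capitals where GATA, CACCC or TATAA, the core of the TATA box, is found on either strand.
Hba-x: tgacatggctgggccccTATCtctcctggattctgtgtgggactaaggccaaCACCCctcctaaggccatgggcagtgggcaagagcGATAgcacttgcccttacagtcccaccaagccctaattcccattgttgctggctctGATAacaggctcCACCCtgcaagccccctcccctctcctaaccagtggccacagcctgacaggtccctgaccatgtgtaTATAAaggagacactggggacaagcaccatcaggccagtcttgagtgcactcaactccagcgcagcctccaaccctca
Hbb-y: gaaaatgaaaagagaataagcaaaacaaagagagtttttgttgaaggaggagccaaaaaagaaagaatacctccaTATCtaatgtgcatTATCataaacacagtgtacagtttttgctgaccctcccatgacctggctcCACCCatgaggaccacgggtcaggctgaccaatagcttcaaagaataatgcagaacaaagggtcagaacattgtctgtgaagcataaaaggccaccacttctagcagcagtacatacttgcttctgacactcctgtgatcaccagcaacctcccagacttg
Alas2: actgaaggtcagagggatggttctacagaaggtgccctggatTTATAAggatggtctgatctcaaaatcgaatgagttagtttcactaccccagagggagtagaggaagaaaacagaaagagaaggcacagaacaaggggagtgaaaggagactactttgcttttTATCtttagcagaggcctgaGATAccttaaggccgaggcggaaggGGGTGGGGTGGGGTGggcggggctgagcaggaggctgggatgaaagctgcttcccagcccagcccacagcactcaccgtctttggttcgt

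The Hba-x window held GATA at 3 places, CACCC at 2 and TATAA once, the last beginning 28 bases before the start. That of Hbb-y held GATA at 2 places, both on the opposite strand, and CACCC once, 111 bases before the start, with no TATAA among these letters. In Alas2, GATA was found at 2 places. CACCC was found there at 3 places in a row on the opposite strand, between 40 and 30 bases before the start. TATAA was found at 2 overlapping places, once on each strand, beginning 208 and 207 bases before the start of Alas2. No other matches overlapped. Of 32851 RefSeq windows of the same length, 57.9% held GATA, 57.5% CACCC, 24.9% TATAA and 7.84% all 3. A match is a description of the letters in the window.

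None of the 5 genes passed the test between mutant and control tongues. At an adjusted p under 0.05 (limma, Benjamini-Hochberg over all tested genes) 0 of 5 were called, beside 2.14% of all tested genes (292 of 13645). At an unadjusted p under 0.05 the count was 1 of 5, Slc4a1, beside 16.9% of all tested genes. The 3 mutant values lay wholly on one side of the 3 control values for that gene alone, beside 25.1% of all tested genes. The difference between mutants and controls was below 0 for 4 of the 5, with a median of -0.178 on the log2 scale against 0.016 over all tested genes. All values are log2 expression, and a level says nothing about how abundant one transcript is beside another.

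**Figure D1:**
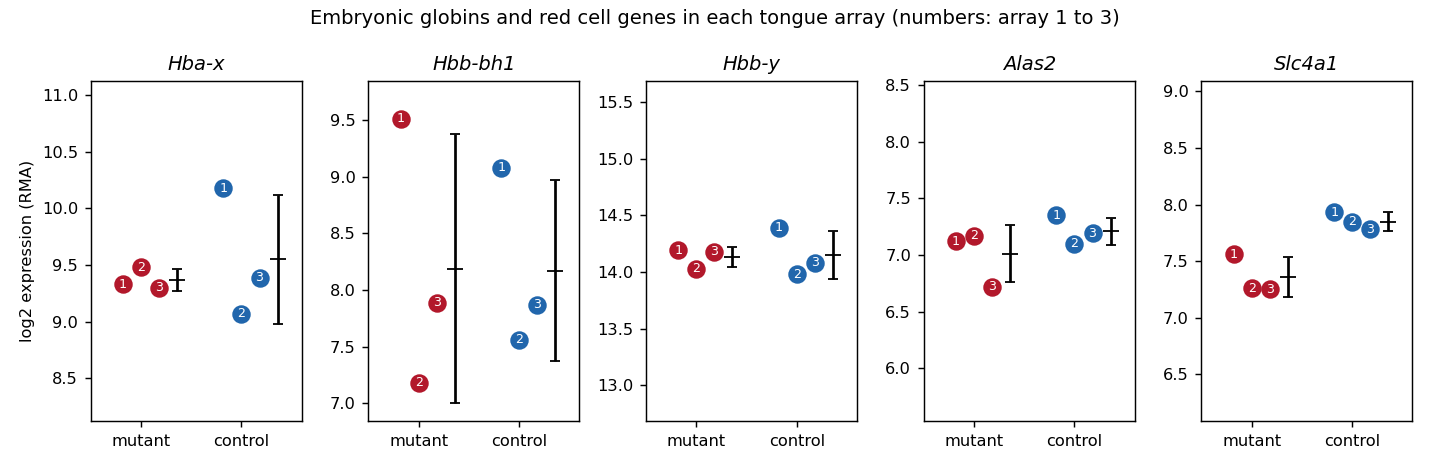
The y axis gives log2 expression of the 5 genes in each array, with mutants in red on the left and controls in blue on the right of each panel, the array number inside each point, and bars for the mean and SD of 3 arrays. Every panel spans the same number of log2 units: Hbb-bh1 spreads over 2.32, Hbb-y over 0.40, and only Slc4a1 has its mutant and control values apart.

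The embryonic alpha-type gene Hba-x had 9.33, 9.48 and 9.30 in mutant arrays 1, 2 and 3, against 10.18, 9.07 and 9.39 in control arrays 1, 2 and 3. Control array 1 was the highest and control array 2 the lowest of all 6, and the mutant values fell between them. The mean was 9.37 ± 0.10 in mutants and 9.55 ± 0.57 in controls (SD, n = 3 each), so that mutants differed by -0.18 on the log2 scale (standard error 0.26, adjusted p = 0.762, limma). The 95% confidence interval ran from -0.78 to 0.43. The difference was 0.14 without control array 1, so its sign rested on that array. A single probe set reads this gene.

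The embryonic beta-type gene Hbb-bh1 differed far more between arrays than between genotypes. Its brightest probe set gave 9.51, 7.18 and 7.89 in mutant arrays 1, 2 and 3, against 9.08, 7.56 and 7.87 in the control arrays. In both genotypes the array titled 1 was the highest and the array titled 2 the lowest, and all 3 control values lay inside the range of the mutants. The highest and the lowest array differed by 2.32 on the log2 scale, or 5.01-fold. The mean was 8.19 ± 1.19 in mutants and 8.17 ± 0.80 in controls (SD, n = 3 each), and mutants minus controls came to 0.02 on the log2 scale (standard error 0.61, adjusted p = 0.988, limma) and a 95% confidence interval from -1.41 to 1.46. With the replicate number as a block, which takes out what arrays of 1 number share, the difference was again 0.02 and its standard error 0.16 (adjusted p = 0.958).

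All 3 probe sets of Hbb-bh1 showed the same order of the arrays. The probe set 1437810_a_at gave 9.32, 7.37 and 7.88 in the mutants, against 9.07, 7.56 and 7.80 in the controls. The probe set 1450736_a_at gave 9.21, 7.12 and 7.91 in the mutants, against 9.06, 7.30 and 7.83 in the controls. The log2 differences of these probe sets were 0.05 and 0.02. The within-group SD of Hbb-bh1, pooled over both genotypes, was 1.02, where the median of all tested genes was 0.146, and only 10 tested genes (0.0733%) had a larger one. The same measure was exceeded by 3.75% of tested genes for Hba-x, 30.3% for Alas2, 43.2% for Hbb-y and 54.5% for Slc4a1. Set against the control array of the same number, Hbb-bh1 in mutant arrays 1, 2 and 3 was 0.43, -0.38 and 0.02 apart, all smaller than its spread within either genotype.

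The other embryonic beta-type gene, Hbb-y, was bright and nearly level. Its brightest probe set gave 14.19, 14.03 and 14.18 in the mutants, against 14.39, 13.98 and 14.08 in the controls. Control array 1 was the highest and control array 2 the lowest, as for Hba-x, and the mutants lay between. The log2 difference was -0.02 (standard error 0.12, adjusted p = 0.957, limma), with a 95% confidence interval from -0.31 to 0.27. The brightest probe set of every array read between 14.89 and 14.93, so Hbb-y lay close to the top of the scale, where an array compresses differences. Its dimmest probe set, 1450621_a_at, gave 13.31, 13.05 and 13.10 in the mutants, against 13.64, 12.83 and 13.13 in the controls. There the arrays spread over 0.81, against 0.40 in the brightest, with a log2 difference of -0.04 and the same highest and lowest array.

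Alas2 had 7.12, 7.17 and 6.72 in mutant arrays 1, 2 and 3, against 7.35, 7.10 and 7.19 in the control arrays. Mutant array 3 was the lowest, and mutant arrays 1 and 2 lay within the range of the controls. The log2 difference was -0.21 (standard error 0.14, adjusted p = 0.5, limma), with a 95% confidence interval from -0.53 to 0.12. Without mutant array 3 it was -0.06. The probe set is the only one for this gene.

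Slc4a1 had the lowest p of the 5 genes, yet it did not pass after adjustment. The brightest probe set gave 7.56, 7.26 and 7.25 in mutant arrays 1, 2 and 3, against 7.93, 7.85 and 7.78 in the control arrays. The mean was 7.36 ± 0.18 in mutants and 7.85 ± 0.08 in controls (SD, n = 3 each), and the groups did not overlap. The log2 difference was -0.49 (standard error 0.11), a ratio of 0.710 of mutant over control, with a 95% confidence interval from -0.76 to -0.23 and an adjusted p of 0.0873 (limma). By this probe set the gene passed when mutant array 1 was left out (-0.60, adjusted p = 0.0109, where 4.91% of genes were called). It also passed with array quality weights (-0.55, adjusted p = 0.00649, where 7.58% were called). Across all alternatives the adjusted p lay between 0.00649 and 0.330 and the log2 difference between -0.60 and -0.39.

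A further Slc4a1 probe set, 1434502_x_at, gave 6.81, 7.24 and 7.0 in the mutants, against 7.58, 7.60 and 7.60 in the controls. Its groups did not overlap either, and mutants minus controls came to -0.58 on the log2 scale (standard error 0.12, adjusted p = 0.0926, limma over all probe sets). It passed with array quality weights (-0.51, adjusted p = 0.0434). The share of all probe sets called with these weights is not given here, and for genes it was 7.58%. Without mutant array 1, which was its lowest mutant, 1434502_x_at differed by -0.47 (adjusted p = 0.0917) and did not pass. In the fit over all probe sets without weights, 0 of the 11 probe sets were called, beside 0.748% of all probe sets. The remaining Slc4a1 probe set, 1431743_a_at, lay at 4.15 ± 0.18 in mutants and 4.24 ± 0.02 in controls (SD, n = 3 each). Both means are under 5.17, the value below which genes were not tested, and its log2 difference was -0.09. Of the 11 probe sets, 9 carry a suffix that can mark probes shared among transcripts of one gene or of several. How far close relatives add to the globin signals was not tested.

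**Figure D2:**
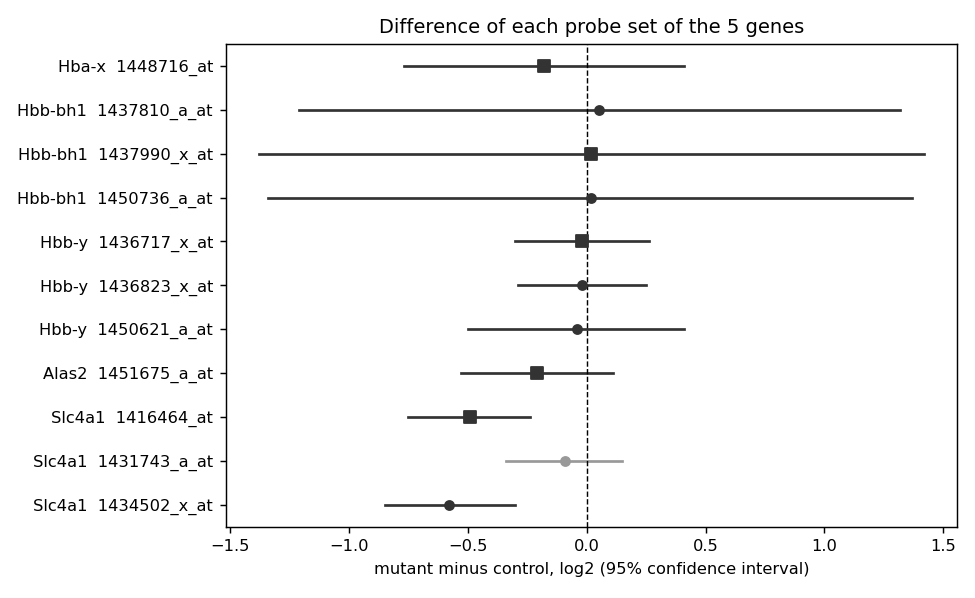
The x axis gives the log2 difference, mutant minus control, of each of the 11 probe sets with its 95% confidence interval. Squares stand for the gene in the test, circles are its other probe sets, and grey marks the probe set under the filter value. The intervals of 2 Slc4a1 probe sets lie wholly below 0 and the other 9 include 0.

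The 3 embryonic globins ran in the same order over the controls, with control array 1 the highest, then array 3, then array 2. In the mutants Hbb-bh1 and Hbb-y again had array 1 highest and array 2 lowest, whereas Hba-x had array 2 highest. Across the 6 arrays, which share their genotype groups and their normalization, Pearson's r was 0.83 between Hba-x and Hbb-y, 0.75 between Hbb-bh1 and Hbb-y, 0.44 between Hba-x and Hbb-bh1 and 0.66 between Alas2 and Slc4a1. Hbb-y had r = 0.22 with Alas2 and r = 0.25 with Slc4a1. With 6 points these are descriptions of these arrays.

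**Figure D3:**
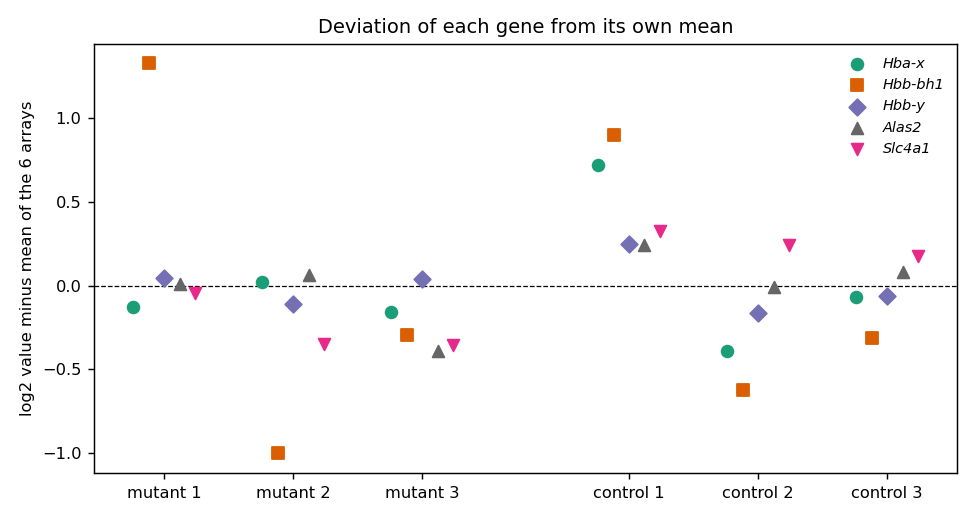
The y axis gives each gene's log2 value minus its own mean over the 6 arrays, which run along the x axis with mutants on the left. Hbb-bh1 stands highest in array 1 of both genotypes and lowest in array 2 of both, and all 3 embryonic globins are highest in control array 1 among the controls.

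Genes whose profile most resembled the 5 were found by Pearson's r with the mean of the 5, each centred on its own mean, over the 6 arrays. That mean was 0.24, -0.27 and -0.23 in the mutants, against 0.49, -0.18 and -0.04 in the controls, and it followed Hbb-bh1 most closely (r = 0.89). The 10 highest were Slc45a2 (r = 0.985), Terf1 (0.984), Golph3l (0.981), Ttc4 (0.974), Asrgl1 (0.973), Car2 (0.970), Znrd1as (0.968), Slc9a9 (0.964), Wnt5b (0.964) and Fmr1 (0.963). Of these, Car2 encodes a carbonic anhydrase that is abundant in red cells. It gave 8.35, 8.09 and 8.08 in the mutants, against 8.63, 8.18 and 8.28 in the controls. The 5 lowest were Epdr1 (r = -0.989), Slc2a4rg-ps (-0.979), Dpf1 (-0.969), Mbtps1 (-0.969) and Dio3os (-0.965). The other genes of both sets spread over no more than 0.83 between arrays. They are the extremes of 13645 genes over 6 points, and no p is given.

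The annotation assigns 4 adult globin probe sets to several genes each. The probe set assigned jointly to the adult beta-globin genes gave 14.32, 14.24 and 14.26 in the mutants, against 14.42, 14.47 and 14.47 in the controls. The groups did not overlap, and mutants minus controls came to -0.18 on the log2 scale (standard error 0.08, adjusted p = 0.380, limma over all probe sets). The 3 probe sets assigned jointly to Hba-a1 and Hba-a2 differed by -0.12, -0.10 and -0.10, and in each the groups overlapped. Most of these values lie near the top of the scale, as for Hbb-y. Of the adult genes with a probe set of their own, Hba-a1 lay under the filter value, at 4.03 ± 0.09 in mutants and 3.95 ± 0.05 in controls (SD, n = 3 each). Hbb-b2 differed by -0.32 (adjusted p = 0.477), by -0.55 without mutant array 1, by -0.13 without mutant array 2 and by -0.14 with its probe sets averaged.

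Differences of other red cell genes lay on both sides of 0. Over 6 lists of other globins, haem synthesis, membrane, regulators, iron and late maturation, 81 of 108 genes were tested. Of these, 46 lay above 0 and 35 below it on the log2 scale. Their median was 0.015, and 2 genes passed, both higher (2.47%, beside 2.14% of all tested genes). At an unadjusted p under 0.05 there were 14 (17.3%, beside 16.9% of all tested genes), 5 higher and 9 lower.

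Both calls are of genes with roles outside red cells. Mb was the single call among 5 tested genes of the globin list, whose median was 0.050. Mb, which encodes the muscle oxygen store myoglobin, was at 8.41, 8.24 and 8.09 in the mutants, against 7.18, 7.48 and 7.26 in the controls, and rose by 0.94 (standard error 0.12, adjusted p = 0.0154, limma). Isg20, encoding an RNA exonuclease induced by interferon, rose by 0.60 (standard error 0.12) with an adjusted p of 0.0496, at the edge of the threshold. It lost the call with arrays centred, after quantile normalization, with the replicate block, with every probe set on its own and without any one array other than mutant array 1. Mb lost it without mutant array 2 and without each control array, with an adjusted p between 0.0574 and 0.103. With its probe sets averaged, the rise of Mb was 0.47 (adjusted p = 0.0440).

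For haem synthesis and breakdown, 0 of 19 tested genes passed (0 higher and 2 lower at an unadjusted p under 0.05), and the list's median was 0.011. Slc25a37, which encodes mitoferrin, the iron importer of red cell mitochondria, was at 7.62, 7.87 and 7.77 in the mutants, against 8.12, 8.45 and 8.02 in the controls, and thus -0.44 apart (log2, standard error 0.13, adjusted p = 0.164). Abcb6, encoding a porphyrin transporter, differed by -0.23 (adjusted p = 0.22). In neither gene did the groups overlap.

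For the red cell membrane and skeleton, 0 of 14 tested genes passed (1 higher and 3 lower at an unadjusted p under 0.05), with a median of -0.047. Ank1, whose product ankyrin ties band 3 to spectrin and which has a muscle form too, was at 9.13, 9.40 and 9.42 in the mutants, against 9.49, 9.72 and 9.75 in the controls, and thus -0.34 apart (log2, adjusted p = 0.22). Aqp1, encoding a water channel of red cells and capillaries, differed by -0.72 (adjusted p = 0.127) and Slc14a1, encoding a urea transporter, by -0.76 (adjusted p = 0.254), and by -0.39 without mutant array 1. Gypc, encoding glycophorin C, had the opposite sign at 0.29 (adjusted p = 0.277), and passed with array quality weights (adjusted p = 0.0286) and without mutant array 1 (adjusted p = 0.0297). The red cell genes Epb42, Rhag, Kel, Xk and Icam4 had means between 3.51 and 4.69, under the filter value, and were not tested.

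Among the regulators 0 of 20 tested genes passed (1 higher and 3 lower at an unadjusted p under 0.05), with a median of -0.021. Gata1 lay between 6.06 and 6.18 over the 6 arrays and Klf1 between 5.02 and 5.75. The erythropoietin receptor gene Epor lay between 6.14 and 6.33, and in each of these genes the groups overlapped. Array medians lay between 5.924 and 5.983, and Klf1 was under the filter value of 5.17 in mutant array 3 and control array 1. Overlap at such levels does not show that expression was unchanged. E2f2, a cell cycle regulator, differed by -0.62 (standard error 0.14, adjusted p = 0.0777, limma), and passed with the replicate block (adjusted p = 0.0324) and with array quality weights (adjusted p = 0.0154), with a range of 0.0154 to 0.329 over all alternatives. Myb, which drives blood progenitors, differed by -0.47 (adjusted p = 0.111), and passed with array quality weights (adjusted p = 0.0315) and without mutant array 1 (adjusted p = 0.0460). Lmo2, a partner of Gata1 and Tal1, differed by -0.26 (adjusted p = 0.184) and Klf3 by 0.27 (adjusted p = 0.176). With its probe sets averaged, the difference of Klf3 was 0.07 (adjusted p = 0.72). E2f2, Lmo2 and Klf3 are expressed in many other cells as well.

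Iron uptake and storage had 0 calls among 10 tested genes and 0 at an unadjusted p under 0.05, with a median of 0.111. Slc11a2, an iron transporter gene, differed by -0.22 and the ferritin gene Fth1 by 0.19. Tfrc, the transferrin receptor gene, lay between 10.65 and 11.24 with overlapping groups. Of 13 tested enzyme and late maturation genes, Isg20 was the single call, and the median was 0.098. Fbxo7 differed by 0.28 (adjusted p = 0.158) and Ube2o, which encodes a ubiquitin ligase of reticulocyte maturation, by -0.39 (adjusted p = 0.217). Car1, Hemgn and Nfe2, genes of red cells or their precursors, had means between 4.04 and 4.36, under the filter value.

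**Figure D4:**
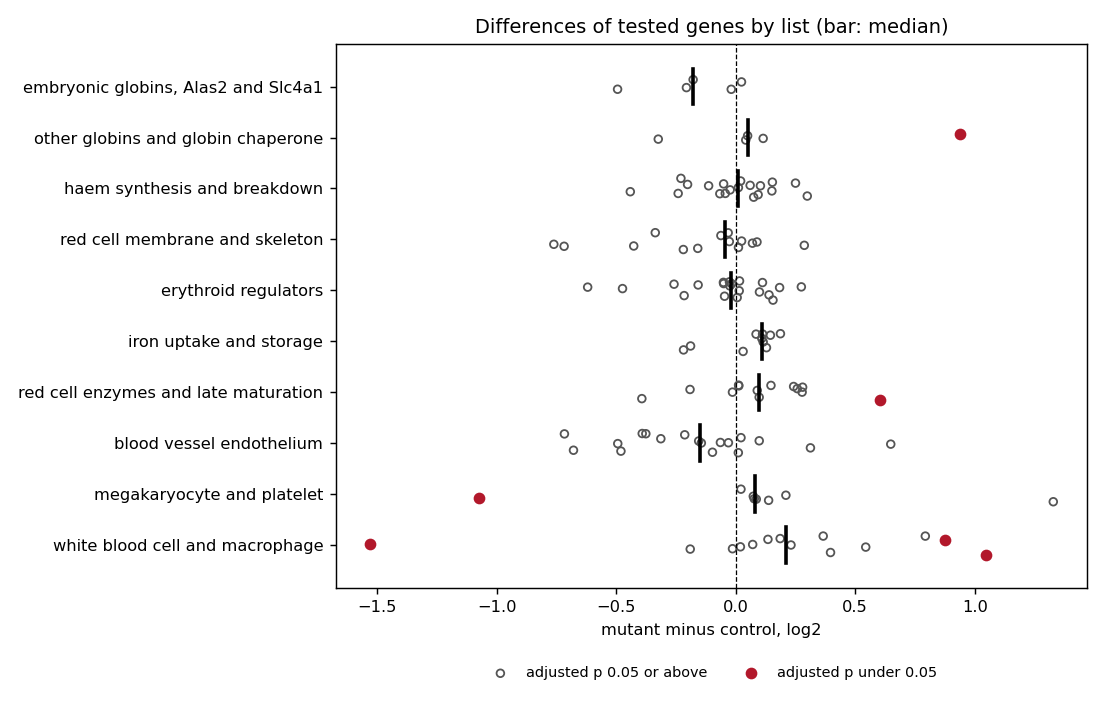
The x axis gives the log2 difference, mutant minus control, of every tested gene in the 5 genes and 9 further lists, which run down the y axis. Filled red points passed the test, open points did not, and the black bar is the list's median. In the red cell lists 2 points are filled, Mb and Isg20, and the medians lie between -0.178 and 0.111.

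Markers of other cells that a tongue sample could hold moved in part with genotype. Of 18 tested endothelial genes 0 passed, with a median of -0.149. The mean of their log2 values relative to the controls was -0.62 in mutant array 1, 0.08 and 0.03 in mutant arrays 2 and 3, and between -0.04 and 0.07 in the controls. The list's mean was thus lowest in mutant array 1, where Slc4a1 was the highest of the 3 mutants by its brightest probe set and the lowest by 1434502_x_at. Some endothelial genes were lower in all 3 mutants. Cldn5, a tight junction gene, was at 7.66, 8.0 and 8.02 in the mutants, against 8.76, 8.46 and 8.5 in the controls (-0.68, adjusted p = 0.0555). It passed without mutant array 1 (-0.56, adjusted p = 0.0360), where 2 of the 18 genes were called, beside 4.91% of all tested genes. The gene also passed with array quality weights (-0.53, adjusted p = 0.0202) and with probe sets averaged (adjusted p = 0.0427). Pecam1 differed by -0.49 (adjusted p = 0.345), and by -0.19 without mutant array 1. Kdr (-0.72, adjusted p = 0.317) and Esam (-0.38, adjusted p = 0.313) were lower in every mutant than in any control. Cdh5 was at 7.04, 8.29 and 8.24 in the mutants, against 8.26, 8.23 and 8.26 in the controls (-0.39, adjusted p = 0.562). For Cdh5, only mutant array 1 lay below all controls. Ramp2, a receptor partner in the same list, had the opposite sign at 0.65 (adjusted p = 0.136), with higher values in every mutant than in any control, and passed without mutant array 1 (0.80, adjusted p = 0.0378) and with array quality weights (adjusted p = 0.0154). Of 8 megakaryocyte and platelet genes 7 had a difference above 0 and 1 passed, the single lower one: Pf4, also expressed by some macrophages, was at 7.25, 7.43 and 6.92 in the mutants, against 8.42, 8.37 and 8.03 in the controls, and fell by 1.07 (adjusted p = 0.0250). Itgb3, an integrin gene of platelets and other cells, was at 6.53, 7.87 and 7.87 in the mutants, against 5.98, 6.09 and 6.21 in the controls, the widest difference of that list at 1.33 (adjusted p = 0.114). It passed with the replicate block (adjusted p = 0.0373), with array quality weights and without mutant array 1 (1.78, adjusted p = 0.000662), and came to 0.75 with its probe sets averaged. Of 14 white cell and macrophage genes 2 were higher, the complement genes C1qa (1.05, adjusted p = 0.0152) and C1qb (0.87, adjusted p = 0.0482), and 1 was lower, Mrc1, a macrophage mannose receptor gene (-1.53, adjusted p = 0.00775). The calls of Pf4, C1qa, C1qb and Mrc1 were each lost without some single control array. The medians were 0.082 for the platelet list and 0.209 for the white cell list. The mean of this list relative to the controls was between 0.19 and 0.24 in the mutants and between -0.10 and 0.17 in the controls. The part of these cells in the Slc4a1 values was not tested.

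Genes of muscle, mesenchyme and epithelium all read above the filter value of 5.17. Myog lay between 12.32 and 12.69, Pdgfra between 10.85 and 11.92 and Krt15 between 12.44 and 13.22 over the 6 arrays. The lowest value of any of the 15 listed tongue genes was 8.94. Whether the material was whole tongue or tongue mesenchyme was not tested. Of 15 tested tongue genes 0 passed, with a median of -0.185. At an unadjusted p under 0.05, 5 were higher and 2 lower, beside 16.9% of all tested genes. The 4 with the smallest p moved both ways. Krt15 (0.56), Krt14 (0.94) and Sox2 (0.72) had higher values in every mutant than in any control. Des differed by -0.69, with overlapping groups. Of the 15, 6 had a difference above 0 and 9 below it. The count of calls in this list was 5 with the replicate block, beside 490 of all 13645 tested genes. It was 4 with array quality weights, beside 1034 (7.58%) of all tested genes. Without mutant array 3 it was 3, beside 242 of all tested genes, and without mutant array 1 it was 2, beside 670 (4.91%). The values of all arrays lay between 2.53 and 14.93, with array medians between 5.924 and 5.983. Arrays have no read depth, and precision is limited by their number: over all tested genes the standard error had a median of 0.117 (log2). Each p-value here sets a difference against the spread between these arrays, which limma moderates over all genes or probe sets of the fit. That spread may be technical.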

How the data were processed

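Total RNA of 6 tongues was measured on Affymetrix arrays. The authors deposited log2 values, and the submitters' processing notes name RMA without a version, a method that corrects background, quantile-normalizes and summarizes each probe set. RMA compresses dim probe sets, the array itself compresses very bright ones, and the quantile step of RMA hides a change shared by most genes.

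The table holds 45101 probe sets, of which 34945 have 1 gene symbol in the platform annotation and 932 have several. The probe set with the highest mean stood for a gene, and genes in the lowest 25% (under 5.17) were left out. Mutants and controls were set against each other by limma 3.58.1 (lmFit, then eBayes, 2-sided; R 4.3.3) over all tested genes, with Benjamini-Hochberg adjustment and a threshold of 0.05. The fit was checked on simulated data. Promoter windows are RefSeq's.

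The 5 genes and the 11 lists were chosen with earlier results of these data known. The naming rule took the 5 genes, the list genes with the 4 smallest p, all called list genes, 13 genes whatever their result, and the 10 genes most and 5 least like the mean of the 5. Of the genes the rule took, Cygb, Ngb, Blvrb, Flvcr1, Ireb2, Aco1, Gpx1, Itga2b, Gp5, Ptprc and Cd52 are not described above. Epb42, Rhag, Kel, Xk, Icam4, Car1, Hemgn, Nfe2, Myog and Pdgfra fall outside the rule and are named for their levels alone.

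Deviations from the group means of arrays with the same title number correlated at 0.3095, 0.1052 and 0.2058, all over 0.1. On that rule, arrays of 1 number were treated as pairs in the alternative with a replicate block. Mutant array 2 with control array 3 (r = 0.1962) and mutant array 3 with control array 2 (r = 0.147) also lay over 0.1. The correlations thus do not separate numbers 2 and 3, and they come from the same arrays that the block was used on. The meaning of the numbers is not given in the labels.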

Additional observations from a re-analysis of the deposited data

How the results depend on the processing

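Results were recomputed with other filters, with probe sets averaged or each tested alone, with centred or quantile-normalized arrays, with trend and robust fitting, with array quality weights, with the replicate block and without each array. Hba-x, Hbb-bh1, Hbb-y and Alas2 were called under none of them. With array quality weights the log2 differences of Hba-x, Hbb-bh1 and Hbb-y changed sign to 0.06, -0.18 and 0.04, and that of Hbb-bh1 was -0.01 with arrays centred on their median. Leaving out 1 array gave -0.42 to 0.14 for Hba-x, -0.63 to 0.53 for Hbb-bh1, -0.10 to 0.10 for Hbb-y, -0.29 to -0.06 for Alas2 and -0.60 to -0.44 for Slc4a1. The sign changed without control array 1 for Hba-x (0.14), without mutant array 1 (-0.63), control array 2 (-0.28) or control array 3 (-0.13) for Hbb-bh1, and without mutant array 2 (0.03) or control array 1 (0.10) for Hbb-y. The single call among the 5 genes under an alternative was that of Slc4a1, by its brightest probe set. It came with array quality weights (-0.55, 1 of 5 called) and without mutant array 1 (-0.60, 1 of 5). The count thus ran from 0 to 1 over the arrays left out. The cause was not tested.

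With the replicate block, the standard error of Hbb-bh1 was 0.16, against 0.61 without it, and its log2 difference was 0.02 in both, and Slc4a1 had an adjusted p of 0.0596. The block changed no call among the 5 genes. It raised the count over all genes to 490, against 292. That count was 151 with the lowest 50% of genes left out, where fewer genes were tested, 1034 with array quality weights and 16 to 670 with 1 array left out: 670 without mutant array 1, 88 without mutant array 2, and 142, 16 and 19 without control arrays 1, 2 and 3. The 2 calls among the 81 tested genes of the red cell lists became 1 under the stricter filter, after centring and after quantile normalization. They became 1 also when probe sets were tested alone. With array quality weights there were 6, where 7.58% of all tested genes were called. With 1 array left out there were 0 to 5. Without mutant array 1 there were 5, where 4.91% of all tested genes were called. Without mutant array 3 there was 1, and without mutant array 2 or any one control array 0. Alas2 fell under the stricter filter and has no value there. Signals close to the background or to the top of the scale understate differences.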
